A study of Zea mays with 14 samples.

Results

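92 of the 39305 maize gene IDs in the count tables were abundant in the root and in the aerial part of B73 seedlings and had almost no reads in B73 root hairs. An ID was taken when its mean level over 2 libraries was at least 100 CPM (the count divided by all counts assigned to genes in the library, scaled to a common total) in B73 root and in B73 aerial seedling. Both means also had to exceed the B73 root hair mean by at least 7 on the log2 scale, after 0.1 CPM was added to each. 1064 IDs reached 100 CPM in both tissues, and 95 of them, or 8.93%, passed this margin. 3 of these were among 4 IDs that the rule leaves out by name. The members were thus chosen by the values of the 6 B73 tissue libraries, which are given as a description, without a test. "Absent" would be too strong a word for the hair level, because each of the 92 members had reads in B73 root hair, from 6 to 488 counts over both libraries.

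Root hairs are tubular outgrowths of root epidermal cells that have stopped dividing. They grow at the tip and take up water and mineral nutrients. A root without its hairs still has inner tissues and growing zones, and the aerial seedling holds young leaf and stem tissue. Both can therefore contain dividing and expanding cells and vascular tissue. How much of the growing zones each root sample held was not measured. Genes with a known role in such tissues include those for histones, which package newly made DNA, for expansins and hydroxyproline-rich proteins of the wall, and for enzymes of benzoxazinoid synthesis, the main chemical defence of young maize.

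Polyadenylated RNA was sequenced from seedlings aged 3 days, in 14 libraries that form 7 groups of 2. Wild type seedlings of the inbred line B73 gave the groups B73 root hair, B73 root (after hairs were scraped off in liquid nitrogen) and B73 aerial seedling. The other 4 groups compare zmlrl5 with wild type plants, in root hair of W22, another inbred line, and in root of material labelled B73. The labels call the W22 material a zmlrl5 knock down and the B73 material a zmlrl5 knock out, and describe neither the allele nor the number of lines. W22 rests on the cultivar label of the 4 hair libraries alone, because the growth protocol, which is the same for all 14 libraries, names only B73. Every value given below for W22 hair, and every statement that line and tissue cannot be told apart, follows the cultivar label. Only the titles of the wild type roots in this set say that hairs were scraped off. The zmlrl5 transcript itself was not analysed here, since the gene table used pairs no ID with that name.

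Library totals ran from 12336633 to 27788359 counts, and 3 counts correspond to 0.108 to 0.243 CPM. The labelled tissues were checked against marker genes. 4 roothairless genes (rth1, rth3, rth5 and rth6), which root hair growth requires, summed to 725 to 1083 CPM in B73 root hair and 540.3 to 678 CPM in W22 root hair, against 100.8 to 142 CPM in the roots and 51.3 to 72.5 CPM in the aerial seedling. The sums hide that rth1 (GRMZM2G099056) went the other way. It had 20.6 and 19.6 CPM in B73 root hair and 32.3 and 41.1 CPM in B73 root. In W22 wild type hair it had 10.3 and 12.6 CPM, against 31.5 and 30.8 CPM in B73 wild type root. rth6 (GRMZM2G436299) had 0 counts in both B73 zmlrl5 root libraries. 19 green shoot markers summed to 3849 and 3875 CPM in the aerial seedling and to at most 253 CPM elsewhere. The root cap gene RCP1 was at 113 and 118 CPM in B73 root, but at 0.648 and 0.513 CPM in the wild type roots of the zmlrl5 set and at 76.0 and 79.7 CPM in W22 wild type root hair. The roots of the 2 sets, all labelled B73, also stood apart in single genes. Of 7519 IDs at 20 CPM or more in both B73 root libraries, 48 were below 1 CPM in all 4 roots of the zmlrl5 set, and 16 of 7567 showed the reverse. Line, growth and library preparation cannot be told apart in these differences.

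The summed level of the 92 members shows the pattern that the rule fixed. It was 99.8 and 110.2 CPM in the B73 root hair libraries, 32686 and 29721 CPM in B73 root, and 66954 and 58107 CPM in the aerial seedling. Mean levels of single members ran from 0.112 to 9.10 CPM in hair, from 107 to 2220.2 CPM in root and from 101.0 to 12013 CPM in the aerial seedling. 66 members were below 1 CPM in hair. The hair level was 0.0551% to 0.735% of the root level, with a median of 0.305%. For comparison, 539 of the 1064 IDs abundant in both tissues had a hair level no higher than 50% of the root level. In bulk tissue, fewer cells of a type and less RNA per cell cannot be told apart.

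**Figure D1:**
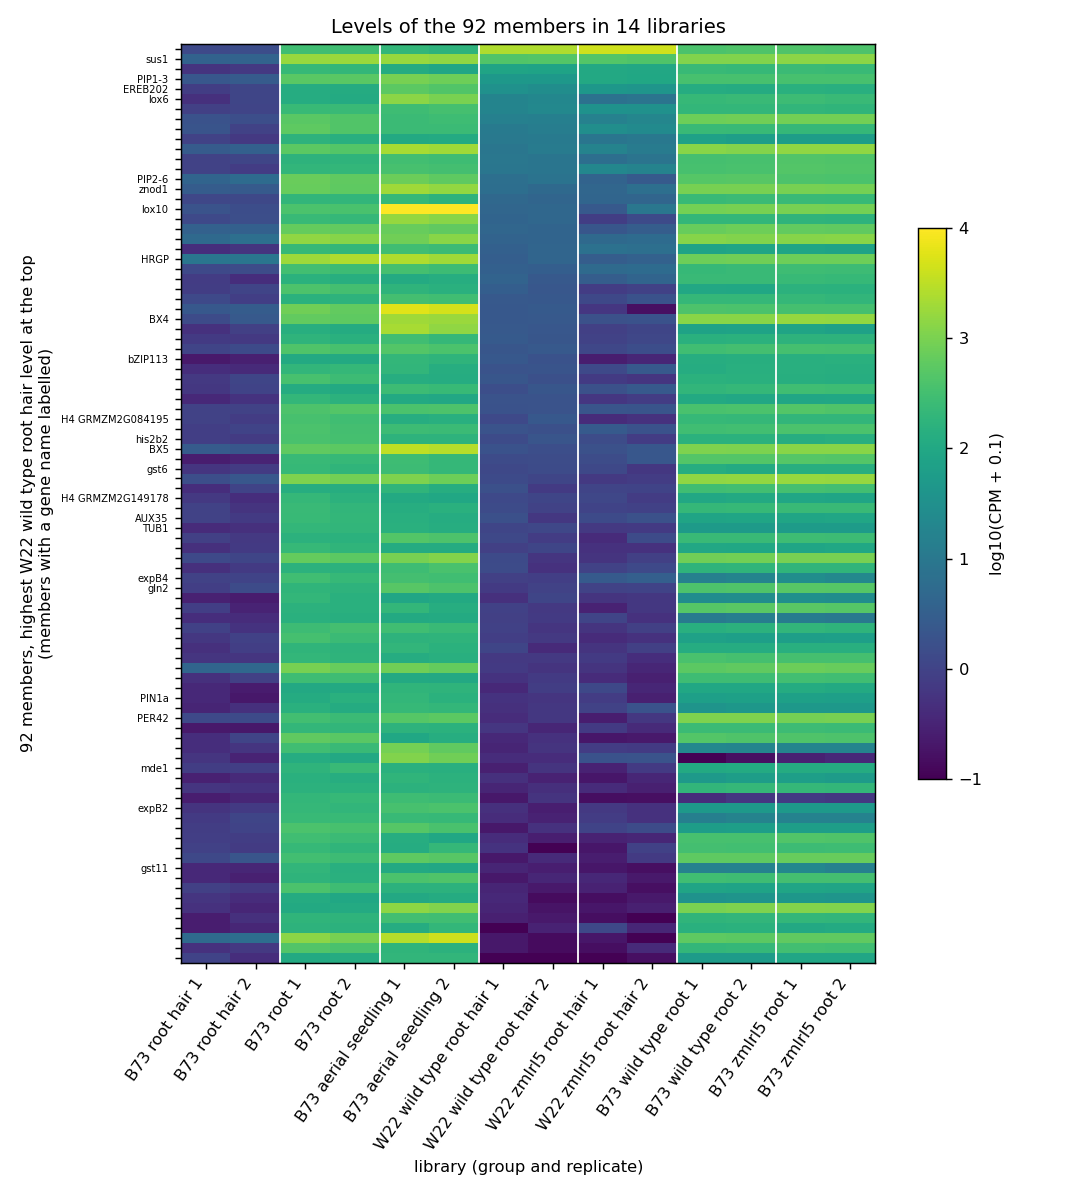
Levels of the 92 members (rows, ordered by W22 wild type root hair level) in the 14 libraries (columns, by group), as log10 of CPM with 0.1 added. The B73 root hair columns are dark throughout, where the members summed to 99.8 and 110.2 CPM, whereas a few rows at the top are bright in W22 root hair.

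24 of the 92 members carry a gene name in RefSeq (assembly Zm-B73-REFERENCE-NAM-5.0), 68 do not, and 14 matched no RefSeq gene. Their CPM values are not scaled by gene length, so levels are compared between libraries and not between genes.

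Genes of the wall, the cytoskeleton and chromatin form a first named group. HRGP (GRMZM2G168651), a hydroxyproline-rich structural protein of the wall, was at 9.17 and 9.03 CPM in B73 root hair, 1884 and 2556 CPM in B73 root and 2512 and 1946 CPM in the aerial seedling. The wild type roots of the zmlrl5 set had 795 and 809 CPM of HRGP, the zmlrl5 roots 801 and 785 CPM, W22 wild type hair 2.99 and 4.18 CPM and W22 zmlrl5 hair 2.95 and 3.49 CPM. Every hair library, of B73 and of W22, was thus far below every root and shoot library, all of which are labelled B73. The beta-expansins expB2 (GRMZM2G021621) and expB4 (GRMZM2G154178), proteins that loosen walls, had 0.464 to 0.900 CPM in B73 hair against 198 to 297 CPM in B73 root and 291 to 390.1 CPM in the aerial seedling. PER42 (GRMZM2G126261), a class III peroxidase, had 1.16 and 1.22 CPM in B73 hair and 306 and 259 CPM in B73 root. TUB1 (GRMZM2G164696), a beta-tubulin of microtubules, had 0.310 and 0.396 CPM in hair, 200.5 and 192 CPM in root and 147 and 131 CPM in the aerial seedling.

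3 members encode core histones. his2b2 (GRMZM2G119071), a histone H2B, was at 0.735 and 0.648 CPM in B73 hair, 369.6 and 329.5 CPM in B73 root, 170.1 and 170.3 CPM in the aerial seedling, 1.30 and 1.99 CPM in W22 wild type hair and 158 and 156 CPM in the wild type roots of the zmlrl5 set. Histone H4 is encoded by the IDs GRMZM2G084195 and GRMZM2G149178, with 359 and 299 CPM, and 211 and 167 CPM, in the B73 root libraries. Copies of H4 genes are nearly identical, so how reads were divided among them is uncertain. All 3 were higher in B73 root than in the aerial seedling in every library. The 7 other dividing-cell markers (replication and core histone genes that are no members) summed to 12.5 and 13.2 CPM in B73 hair, 902 and 1030.2 CPM in B73 root and 393 CPM in both aerial libraries. They include his2b5 (GRMZM2G342515) and the H3 gene GRMZM2G401581, which are among the IDs that the rule leaves out by name. Their sum is thus not independent of how the members were chosen, and their part in the histone levels was not tested.

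Enzymes of defence and primary metabolism form the next group. BX4 (GRMZM2G172491) and BX5 (GRMZM2G063756) are cytochrome P450 enzymes that act in sequence in benzoxazinoid synthesis. BX4 was at 1.32 and 2.34 CPM in B73 hair, 624 and 573 CPM in B73 root and 1958 and 1788 CPM in the aerial seedling, and BX5 at 2.59 and 2.09, 598 and 557, and 3299 and 2742 CPM. Both genes were higher in the aerial seedling than in the root in every library. lox10 (GRMZM2G015419), a lipoxygenase needed for green leaf volatiles in maize, was at 1.78 and 1.40 CPM in hair, 381 and 363 CPM in root and 13707 and 10319 CPM in the aerial seedling. lox6 (GRMZM2G040095), another lipoxygenase, was at 0.387 and 1.01, 124 and 114, and 1355 and 989.6 CPM in the same order. Of the metabolic genes, sus1 (GRMZM2G152908), a sucrose synthase, was at 3.68 and 3.89 CPM in hair, 1715 and 1797 CPM in root and 1726 and 1506 CPM in the aerial seedling. gln2 (GRMZM2G024104), a glutamine synthetase, had 0.735 and 1.30 CPM in hair against 188 and 173 CPM in root and 505 and 399 CPM in the aerial seedling. The glutathione S-transferases gst6 (GRMZM2G129357) and gst11 (GRMZM2G119499), which detoxify by conjugation, had 0.252 to 0.648 CPM in hair and 146 to 219 CPM in root.

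Membrane transport and regulation account for 5 further named members. PIP2-6 (GRMZM2G047368) is a plasma membrane aquaporin, a channel for water, at 4.06 and 5.61 CPM in B73 hair, 721 and 595 CPM in B73 root and 758 and 584 CPM in the aerial seedling. The ID GRMZM2G392975 carries the names of 2 close aquaporin copies, PIP1-3 and PIP1-4, and had 2.13 and 2.63 CPM in hair, 536 and 529 CPM in root and 933 and 771 CPM in the aerial seedling. PIN1a (GRMZM2G098643), an efflux carrier of auxin, had 0.271 and 0.108 CPM in hair and 121 and 146 CPM in root. The transcription factor genes EREB202 (GRMZM2G148333), of the AP2/EREBP family, and bZIP113 (GRMZM2G445575) had 0.116 to 1.01 CPM in hair and 107 to 123 CPM in root. The remaining named members, AUX35 (GRMZM2G167794), mde1 (GRMZM2G155281) and znod1 (GRMZM2G052562), had 0.612 to 2.71 CPM in hair and 181 to 681 CPM in root.

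**Figure D2:**
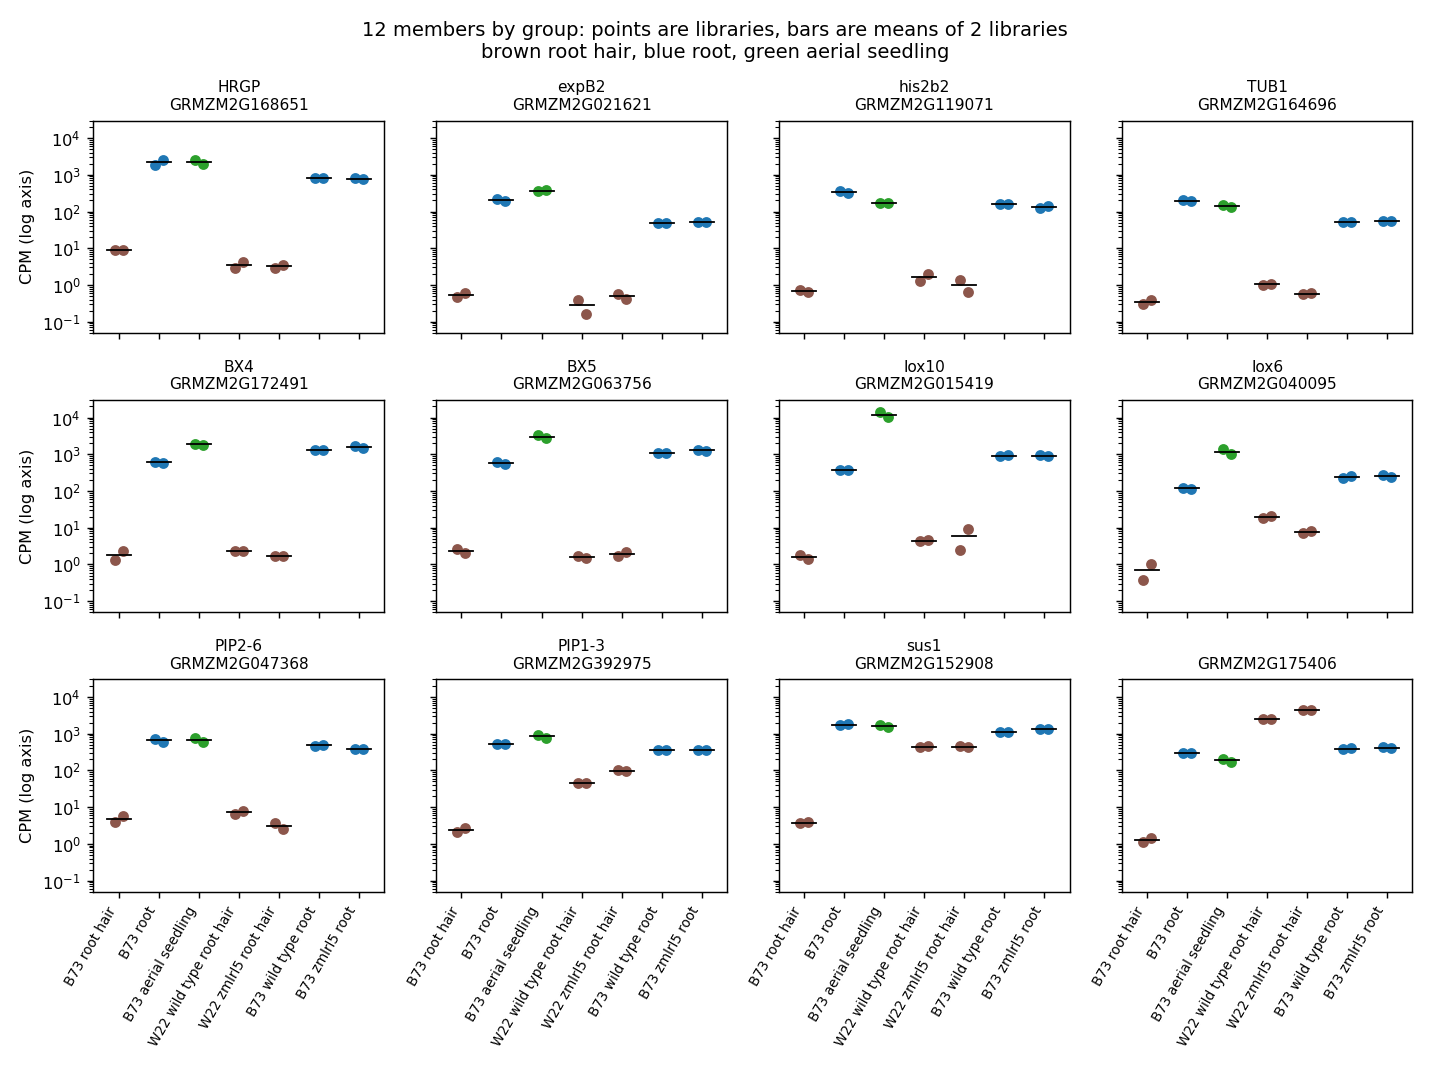
CPM on a log axis of 12 members in the 7 groups. Points are libraries and bars are means of 2 libraries. HRGP, for example, is at 9.03 and 9.17 CPM in B73 root hair and at 1884 and 2556 CPM in B73 root, and sus1 and GRMZM2G175406 depart from the other panels in W22 root hair.

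Root and aerial seedling were not equal for all members. 64 were within 2-fold of each other, 18 were over 2-fold higher in the aerial seedling and 10 over 2-fold higher in the root, and the median ratio of root to aerial seedling was 0.957. The steepest shoot excess was that of lox10, at 32.3-fold on means, followed by GRMZM2G013986 at 14.3-fold and GRMZM2G176998 at 11.3-fold. GRMZM2G476762 led in the root direction at 5.10-fold, with 607 and 531 CPM in root and 95.3 and 127.8 CPM in the aerial seedling, ahead of GRMZM2G367701 at 2.67-fold and GRMZM2G024708 at 2.47-fold. Unnamed members were also prominent in the aerial seedling. GRMZM2G080466 was at 5852 and 4725 CPM there against 816 and 632 CPM in root and 2.24 and 2.73 CPM in B73 hair, and GRMZM2G011523 at 2769 and 4135 CPM against 1359 and 946 CPM and 5.22 and 6.26 CPM.

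Several genes lay close to the thresholds. Just inside the fold margin, the smaller of the ratios of root and of aerial seedling to hair was 129 for EREB202, 133 for PIP2-6 and 134 for GRMZM2G175406. GRMZM2G147243 at 127, c2 (GRMZM2G422750, chalcone synthase of flavonoid synthesis) at 125 and GRMZM2G109431 at 125 fell just outside. GRMZM2G149178, GRMZM2G475899 and gst11 were just inside the level limit, with 101.0, 101 and 104 CPM in the aerial seedling. GRMZM2G022958 (99.5 CPM in root), GRMZM2G143791 (98.8 CPM in the aerial seedling) and GRMZM2G096020 (98.5 CPM in root) were just outside. The number of members depended on the scaling. When CPM was adjusted with TMM factors (a scaling that balances most genes between libraries), 35 of the 92 met the whole rule. That rule holds both the minimum of 100 CPM and the margin of 7 on the log2 scale, and losses to each were not counted apart.

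The zmlrl5 set offers root hair and root libraries that the rule did not use, although W22 hair is there set against B73 root, so line and tissue cannot be told apart. 89 of the 92 members were lower in both W22 wild type hair libraries than in both B73 wild type root libraries, as were 46% of all 39305 IDs. For zmlrl5 hair against zmlrl5 root the same count was 90 members against 45.2% of all IDs. The summed level was 3307 and 3418 CPM in W22 wild type hair and 30031 and 30614 CPM in B73 wild type root. Without GRMZM2G175406 the hair sums were 801 and 832 CPM, and without GRMZM2G175406 and sus1 they were 370.5 and 372 CPM. 53 members were below 1% of their B73 wild type root level in W22 wild type hair, 31 were from 1% to 10%, and 8 were at 10% or more.

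A test across all genes gave the same split. edgeR's quasi-likelihood test with Benjamini-Hochberg adjustment called 89 members lower in W22 wild type hair and 2 higher at adjusted p under 0.05, where 44% of the 25303 genes tested were called lower and 36.5% higher, or 80.5% in all. With library totals in place of TMM factors, the log2 values of the 91 members tested are lower by 0.36 to 0.75, with a median shift of 0.75. The median over all genes tested is then -0.97 in place of -0.23, and 71.7% in place of 54.7% of all calls are lower, while 89 members are still called lower. 91 members passed the filter on low counts, 25 of them only with their root libraries, so these counts describe the members and do not add support. Their median B73 wild type root level was 215.5 CPM, against 9.79 CPM for all genes tested. GRMZM2G094639, the member not tested, had 0.113 and 0.455 CPM in W22 wild type hair and 0.324 and 0.513 CPM in B73 wild type root, which overlap.

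**Figure D3:**
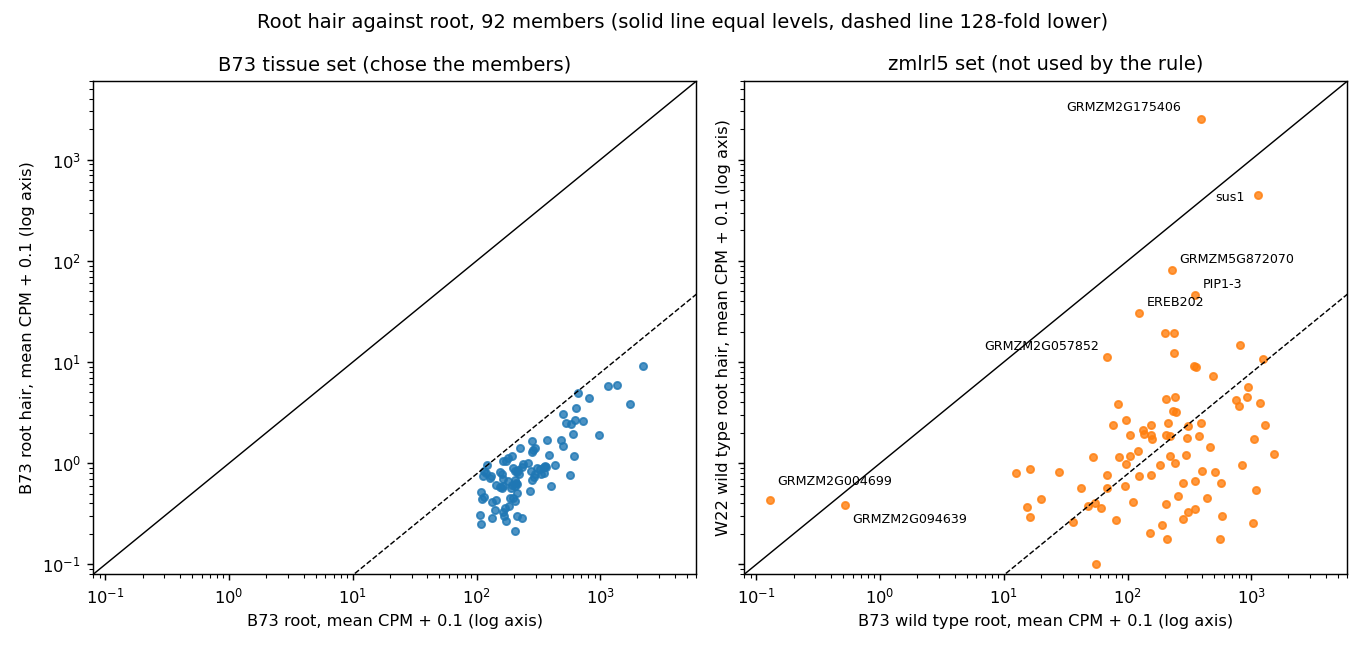
Mean root hair level against mean root level (CPM with 0.1 added, log axes) for the 92 members, in the B73 tissue set that chose them (left) and in the zmlrl5 set (right). The solid line marks equal levels and the dashed line hair levels lower by 7 on the log2 scale. On the right 45 members keep that margin, and GRMZM2G175406 and GRMZM2G004699 lie above the line of equality.

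Most named members of the wall, histone and defence groups had a low hair level in W22 too, and lox6 did not keep its B73 level. The log2 fold change of W22 wild type hair against B73 wild type root was -7.02 ± 0.12 (SE) for HRGP (adjusted p = 4.62e-30), -6.74 ± 0.24 for expB2, -3.65 ± 0.27 for expB4, -10.47 ± 0.15 for PER42 and -4.90 ± 0.18 for TUB1. his2b2 was at -5.79 ± 0.15 and the H4 genes GRMZM2G084195 and GRMZM2G149178 at -6.15 ± 0.15 and -5.84 ± 0.17. BX4 and BX5, with 2.26 and 2.36 CPM and 1.75 and 1.49 CPM in W22 wild type hair against 1300.1 and 1309 CPM and 1064 and 1054 CPM in B73 wild type root, were at -8.39 ± 0.12 and -8.62 ± 0.12. lox6 had 18.0 and 21.0 CPM in W22 wild type hair, against 0.387 and 1.01 CPM in B73 hair, and was at 8.198% of its root level on means, with a log2 fold change of -2.85 ± 0.10. lox10 was at -6.94 ± 0.20, gln2 at -8.29 ± 0.14 and PIN1a at -6.39 ± 0.22. All of these were lower in both hair libraries than in both root libraries. 3 members had 3 counts or fewer over both W22 wild type hair libraries. GRMZM2G009232 had none, which puts it at least 779-fold lower in hair when 3 counts over the group are taken as the floor. GRMZM2G011523 had 3 counts, a root to hair ratio of 7774 with an exact 95% counting interval of 2660 to 37702, and GRMZM2G327266 had 3 counts, a ratio of 2924 with an interval of 1000.2 to 14184. Such intervals cover counting error only.

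45 of the 92 members kept the margin of 7 on the log2 scale in W22 wild type hair against B73 wild type root. The rule set this margin on B73 hair alone, and the share of other IDs that keep it here was not counted. GRMZM2G004699 and GRMZM2G094639, below 1 CPM in B73 wild type root, could not keep it. The largest departures from the margin were few. GRMZM2G175406, an ID without a gene name, was at 1.16 and 1.44 CPM in B73 hair, 295 and 294 CPM in B73 root and 205 and 169 CPM in the aerial seedling. In W22 hair it reached 2506 and 2586 CPM in wild type and 4347 and 4387 CPM in zmlrl5, against 379.6 and 411 CPM in the B73 wild type roots and 425 and 399.5 CPM in the zmlrl5 roots. Its W22 hair libraries therefore stood above every other library of the study, and its B73 hair libraries below every other. The log2 fold change of W22 wild type hair against B73 wild type root was 3.43 ± 0.08 (adjusted p = 8.12e-27, edgeR), or 2.69 on library totals.

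sus1 was also abundant in W22 hair. It had 430.1 and 459.9 CPM in W22 wild type hair and 449 and 423 CPM in zmlrl5 hair, against 3.68 and 3.89 CPM in B73 hair, 1134 and 1145 CPM in the wild type roots and 1373 and 1363 CPM in the zmlrl5 roots. It remained lower in W22 hair than in those roots, at a log2 fold change of -0.61 ± 0.07 (adjusted p = 5.78e-09, edgeR), or -1.36 on library totals. GRMZM5G872070 had 82.1 and 81.1 CPM in W22 wild type hair, 0.464 and 0.576 CPM in B73 hair and 229 and 228 CPM in the B73 wild type roots. EREB202 had 33.0 and 28.0, 0.696 and 1.01, and 127 and 121 CPM in the same groups, and PIP1-3 had 45.3 and 46.2, 2.13 and 2.63, and 349.9 and 358 CPM. On means these members were at 39.0% (sus1), 35.6% (GRMZM5G872070), 24.6% (EREB202) and 12.9% (PIP1-3) of the root level in W22 wild type hair, and GRMZM2G057852 was at 16.04%. 11 members in all were at 10 CPM or more in W22 wild type hair and 43 were below 1 CPM, whereas no member reached 10 CPM in either B73 hair library. W22 and B73 hair belong to separate sets and the B73 values chose the members, so this difference was not tested.

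The other member called higher, GRMZM2G004699, had 14 counts over both W22 wild type hair libraries and 1 over both B73 wild type root libraries, a ratio of 9.98 with an exact 95% counting interval of 1.52 to 422. It was at 124 and 106 CPM in B73 root, 1133 and 827 CPM in the aerial seedling and at most 0.270 CPM in the 4 roots of the zmlrl5 set. Its call therefore came from a root level near 0 in that set, not from an abundant hair transcript.

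Dividing-cell markers moved with these results and the root cap marker moved against them. The 7 dividing-cell markers that are no members summed to 17.4 and 21.96 CPM in W22 wild type hair and to 415 and 411 CPM in B73 wild type root. These include IDs that the rule leaves out by name, as given above. RCP1 was at 76.0 and 79.7 CPM in that hair and at 0.648 and 0.513 CPM in those roots. Their part in the members' levels was not tested.

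Related genes that are no members were counted in the same comparison, beside the 44% of all genes tested that were called lower and the 36.5% called higher. These lists were taken by gene name and hold only named genes, and none was tested against other genes. All 9 other histone genes tested were called lower in W22 wild type hair than in B73 wild type root, with a median log2 fold change of -3.81, against -0.23 for all genes tested. That list includes linker and centromere histones and IDs that the rule leaves out. Of 12 DNA replication genes 11 were lower and 1 higher (median -4.52), of 11 cyclin and cell division genes 8 were lower and 0 higher (median -2.81), and of 7 other expansins 6 were lower and 1, expa1, was higher. Among 8 other benzoxazinoid genes 6 were lower (median of the 8 -4.47), whereas BX14, at 3.36 ± 0.10, and bx9, at 1.85 ± 0.07, were higher. The 6 include bx1 (GRMZM2G085381, -7.49) and BX3 (GRMZM2G167549, -7.86), which are among the 4 IDs that the rule leaves out by name, so this count is not independent of how the members were chosen.

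Other families were divided. Of 26 other aquaporins 14 were higher and 11 lower, with TIP2-2, a channel of the vacuole membrane, at 2.90 ± 0.07 and PIP2-5, of the plasma membrane, at -3.35 ± 0.09. Of 12 other tubulins 5 were higher and 6 lower, with TUB2 at 3.86 ± 0.11 and tub6 at -3.60 ± 0.11. Their medians, 0.60 and 0.03, are smaller than the median shift of 0.75 between scalings, so neither family has a direction that holds under both. Of 10 other laccases and peroxidases 5 were higher and 5 lower, and of 40 other auxin genes 12 were higher and 25 lower. Of 10 other genes in the wall protein list 6 were higher and 3 lower. GRMZM2G099780, which also carries the name HRGP and is no member, was at -2.31 ± 0.21. In this list and in others, some genes may be matched by letters of their name alone. Among the lists that hold no member, 14 of 15 cellulose synthase genes were lower and 1 higher. Of 36 ribosomal protein genes 31 were lower and 2 higher. Of 13 photosynthesis genes 9 were higher and 1, psat1 at -1.06 ± 0.10, was lower. The 19 green shoot markers, taken by like names, went the other way as a sum. They had 73.1 and 61.3 CPM in W22 wild type hair and 131 and 148 CPM in B73 wild type root. Of 4 wall glucan enzymes 2 were called in each direction, and the 1 lipid transfer gene tested was lower.

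Some of the members differed between zmlrl5 and wild type root hair of W22. 15 members were called higher and 15 lower in zmlrl5 than in wild type hair (edgeR, adjusted p under 0.05), where 10.1% of all genes tested were called higher and 12.4% lower, or 22.5% in all. The members had a median log2 fold change of -0.12, against -0.01 for all genes tested. Without GRMZM2G009232, which had 0 counts in wild type and 1 count in zmlrl5 hair, they ranged from -3.31 to 2.48. GRMZM2G392975 (PIP1-3) rose from 45.3 and 46.2 CPM in wild type hair to 103 and 93.8 CPM in zmlrl5 hair, a log2 fold change of 1.09 ± 0.08 (adjusted p = 1.64e-11). GRMZM2G175406 rose by 0.76 ± 0.07 (adjusted p = 6.56e-10) from the levels given above. In both genes the 2 libraries of each group lay close together and the groups did not overlap.

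Other members that rose were mostly without a name. GRMZM2G130079 went from 11.1 and 13.0 to 29.5 and 24.5 CPM (log2 fold change 1.14 ± 0.11) and GRMZM2G538535 from 9.08 and 8.69 to 20.2 and 17.4 CPM (1.07 ± 0.12). GRMZM2G055704 went from 17.5 and 21.4 to 34.6 and 33.0 CPM (0.77 ± 0.10). EREB202 rose by 0.44 ± 0.10 (adjusted p = 0.00124). expB4 rose by 1.86 ± 0.33, but from 0.790 and 0.744 CPM to 2.48 and 3.19 CPM, still under its level of 21.5 and 28.6 CPM in the zmlrl5 roots.

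Members that fell include bZIP113, the lipoxygenase lox6 and the aquaporin PIP2-6. bZIP113 went from 2.31 and 1.70 CPM in wild type hair to 0.155 and 0.241 CPM in zmlrl5 hair, a log2 fold change of -3.31 ± 0.40 (adjusted p = 1.55e-07), beside 0.116 and 0.180 CPM in B73 hair. lox6 went from 18.0 and 21.0 to 7.14 and 8.36 CPM (-1.36 ± 0.13, adjusted p = 2.00e-09) and PIP2-6 from 6.60 and 7.82 to 3.73 and 2.53 CPM (-1.21 ± 0.18). None of these groups overlapped. The unnamed IDs AC231745.1_FG003 (3.95 and 4.51 to 0.725 and 1.20 CPM, -2.18 ± 0.24), GRMZM2G080466 (2.26 and 2.48 to 0.518 and 0.0601 CPM, -2.96 ± 0.37) and GRMZM2G013986 (2.37 and 2.19 to 0.776 and 1.02 CPM, -1.36 ± 0.29) fell as well, as did the H4 gene GRMZM2G084195 at -2.34 ± 0.38. These levels are a few CPM or less, near the low end of what the depth resolves. sus1 (-0.04 ± 0.07), BX4 (-0.46 ± 0.22), BX5 (0.23 ± 0.23), HRGP (-0.21 ± 0.19) and lox10 (0.35 ± 0.28) did not pass the test in hair.

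Markers of other cells and the related lists were read in the same hair libraries. RCP1 was at 76.0 and 79.7 CPM in wild type and 56.5 and 62.0 CPM in zmlrl5 hair. The 7 dividing-cell markers summed to 17.4 and 21.96 CPM and to 17.3 and 21.5 CPM, and the 19 green shoot markers to 73.1 and 61.3 CPM and to 72.98 and 134 CPM. The root cap marker was thus lower in both zmlrl5 libraries, and the other sums overlapped between the groups. Their part in the members' changes was not tested. Of the lists without members, 26 of 36 ribosomal protein genes were lower and 0 higher in zmlrl5 hair, 7 of 13 photosynthesis genes higher and 0 lower, and 6 of 15 cellulose synthase genes higher and 0 lower. 9 of 26 other aquaporins were higher and 4 lower, 5 of 12 other tubulins higher and 2 lower, 7 of 40 other auxin genes higher and 4 lower, and 2 of 9 other histone genes higher and 1 lower. Lower calls outnumbered higher ones among 8 other benzoxazinoid genes (4 and 1), 10 other laccases and peroxidases (5 and 0), 10 other wall protein genes (3 and 0) and 7 other expansins (2 and 0). Of 12 DNA replication genes 0 were called, of 11 cyclin and cell division genes 1 was lower, of 4 wall glucan enzymes 1 was called in each direction, and the 1 lipid transfer gene was not called. These counts stand beside the 10.1% of all genes called higher and the 12.4% called lower.

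In B73 roots the zmlrl5 differences of the members were small and mostly upward. 19 members were called higher and 2 lower in zmlrl5 than in wild type root, where 4.27% of all genes tested were called higher and 4.09% lower. None of the 21 changed by 2-fold or more. The median log2 fold change was 0.13 for the members and 0.02 for all genes tested. The shares are not matched for level. The median B73 wild type root level was 215.5 CPM for members and 9.79 CPM for all genes tested. Small changes pass a test more readily at high counts, and genes of like level were not counted apart. GRMZM2G056236 rose from 100.4 and 94.4 to 159.6 and 155 CPM (0.73 ± 0.09, adjusted p = 8.89e-07), GRMZM2G009232 from 55.7 and 55.8 to 92.7 and 89.6 CPM (0.75 ± 0.11, adjusted p = 1.02e-05), GRMZM2G327266 by 0.57 ± 0.09 and GRMZM2G039365 by 0.52 ± 0.09.

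Named members that rose in zmlrl5 root were expB4 (14.7 and 17.6 to 28.6 and 21.5 CPM, 0.68 ± 0.18), gln2 (0.33 ± 0.08), BX4 (1300.1 and 1309 to 1635 and 1524 CPM, 0.32 ± 0.07), BX5 (0.32 ± 0.07) and sus1 (1134 and 1145 to 1373 and 1363 CPM, 0.30 ± 0.07). The smallest and largest adjusted p of these 5 were 0.00245 and 0.0109. PIP2-6 fell by 0.30 ± 0.09 on the log2 scale, from 471 and 504 to 394 and 377 CPM, and GRMZM2G032807 by 0.43 ± 0.11. These calls depended on single libraries. Without B73 wild type root replicate 1 only 4 members were called, GRMZM2G009232, GRMZM2G039365, GRMZM2G056236 and GRMZM2G327266, and without B73 zmlrl5 root replicate 1 there were 8. With the replicate number as a block 15 of the 21 were called.

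The related lists and the markers of other cells were read in the same roots. 5 of 7 other expansins and 6 of 13 photosynthesis genes were called higher, and 0 lower. Of 8 other benzoxazinoid genes 4 were higher, bx1 and BX3 among them, and 1 (BX14, -1.91) lower. 4 of 15 cellulose synthase genes, 2 of 4 wall glucan enzymes, 2 of 12 other tubulins, 1 of 10 other wall protein genes and 1 of 40 other auxin genes were higher, with 0 lower. Of 10 other laccases and peroxidases 2 were higher and 3 lower, and of 26 other aquaporins 1 was higher and 2 lower. 1 of 36 ribosomal protein genes and 1 of 12 DNA replication genes were lower, and 0 of 9 other histone genes, 0 of 11 cyclin and cell division genes and 0 of 1 lipid transfer gene were called. The shares over all genes tested were the 4.27% and 4.09% given above. The green shoot markers summed to 131 and 148 CPM in wild type and 174 and 176 CPM in zmlrl5 root, the 7 dividing-cell markers to 415 and 411 CPM and to 359 and 363 CPM, and RCP1 was at 0.648 and 0.513 CPM and at 0.0947 and 0.0540 CPM. In none of these markers did the groups overlap, and their part in the members' changes was not tested.

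**Figure D4:**
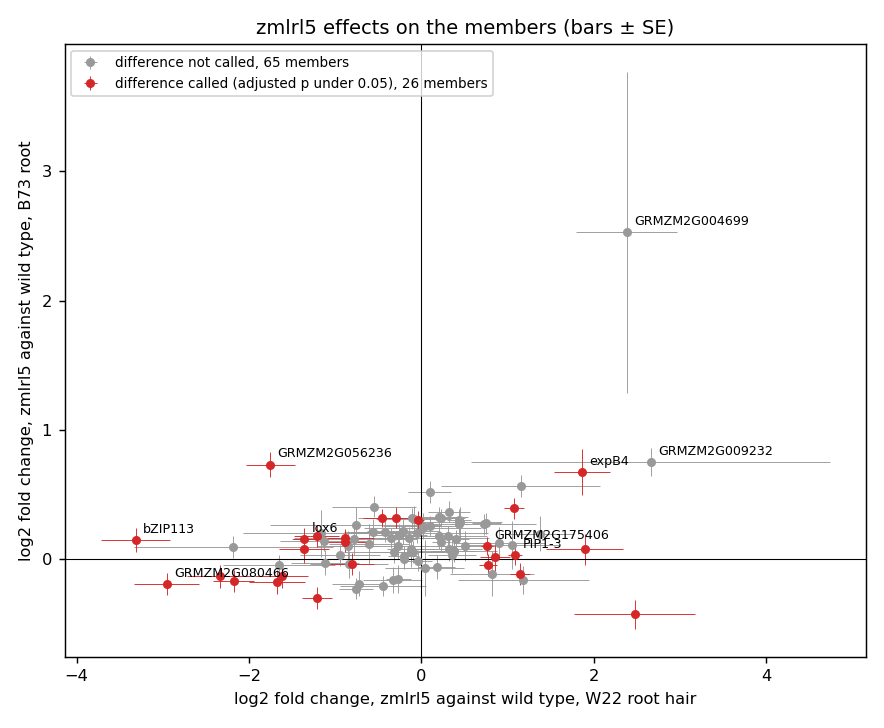
log2 fold change of zmlrl5 against wild type in W22 root hair (horizontal) and in B73 root (vertical) for the 91 members tested, with standard errors. Red points are the 26 members whose effects in hair and root differed at adjusted p under 0.05. bZIP113 lies far to the left, at -3.31 in hair and 0.15 in root.

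The effect in hair differed from that in root for 26 members by a test of the difference itself, 17 with a lower and 9 with a higher log2 fold change in hair, where 8.11% of all genes tested were called lower and 6.52% higher, or 14.6% in all. Tissue, line and the kind of zmlrl5 material change together in this contrast. The difference was -3.46 ± 0.41 for bZIP113, -1.51 ± 0.16 for lox6, 1.06 ± 0.11 for PIP1-3 and 0.66 ± 0.10 for GRMZM2G175406. GRMZM2G056236 was called in opposite directions, at -1.75 ± 0.28 in hair (2.99 and 2.15 to 0.673 and 0.842 CPM) and 0.73 ± 0.09 in root. GRMZM2G032807 was called lower in root and higher in hair, where it had 0 and 0.207 CPM in wild type and 1.09 and 0.241 CPM in zmlrl5. 7 members were called in both tissues, 5 of them in the same direction, and expB4, GRMZM2G538535 and PIP2-6 are among those 5. The same overlap was not counted over all genes tested, so no shared zmlrl5 effect is read from it.

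Roots labelled B73 in both sets gave members different levels. 55 of the 92 were within 2-fold between B73 root and B73 wild type root, 27 were over 2-fold lower and 10 over 2-fold higher in the latter, and 67 were still at 100 CPM or more there. The values of B73 root chose the members, so the difference was not tested. The transcript of GRMZM2G004699 went from 124 and 106 CPM to 0 and 0.0570 CPM, and that of GRMZM2G094639 from 202 and 226 to 0.324 and 0.513 CPM. Both were at 0.616 CPM or less in the zmlrl5 roots too. 5 further members were over 8-fold lower, and among them expB4 had 14.7 and 17.6 CPM and gst11 15.8 and 16.4 CPM in B73 wild type root. The others were GRMZM2G034985, GRMZM5G805485 and GRMZM2G141026. In the opposite direction GRMZM2G176998 was 9.25-fold higher, at 974 and 1089.8 CPM against 108 and 115 CPM. RCP1, the root cap marker, and the 7 dividing-cell markers were also lower in B73 wild type root than in B73 root, as given above, and their part in these levels was not tested.

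**Figure D5:**
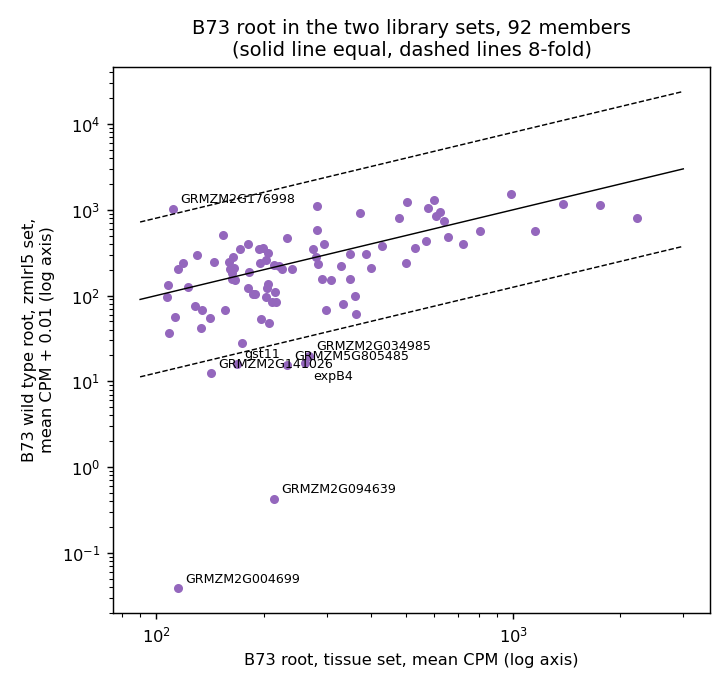
Mean level of the 92 members in B73 root of the tissue set (horizontal, CPM, log axis) and in B73 wild type root of the zmlrl5 set (vertical, CPM with 0.01 added, log axis). The solid line marks equal levels and the dashed lines 8-fold differences. 55 members lie within 2-fold, and GRMZM2G004699 and GRMZM2G094639 lie far below the rest.

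The 78 members matched to RefSeq lie on 10 chromosomes, and 5 pairs of them were at most 5 protein-coding genes apart in the RefSeq order (assembly Zm-B73-REFERENCE-NAM-5.0). BX4 and BX5, on chromosome 4 and 2 positions apart, belong to the known cluster of benzoxazinoid genes. expB4 and PIP2-6 are 5 positions apart on chromosome 7. The unnamed neighbours, each 1 position apart, are GRMZM2G364748 and GRMZM2G063566 on chromosome 10, GRMZM2G327266 and GRMZM2G056236 on chromosome 5, and GRMZM2G476762 and GRMZM2G175406 on chromosome 8. Neighbours did not always share a pattern. GRMZM2G476762 had 0.282 and 0.414 CPM in W22 wild type hair, where GRMZM2G175406 had 2506 and 2586 CPM. GRMZM2G327266 and GRMZM2G056236 were both higher in zmlrl5 root, by 0.57 and 0.73 on the log2 scale.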

How the data were processed

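The authors deposited whole-number read counts for 39305 gene IDs in each of 14 libraries, unnormalized. The submitters' processing notes name TopHat2, HTSeq and DESeq, and the sources used here give no version, genome build or strand setting. Reads of overlapping genes and close copies may therefore be split or shared. Summary entries in the 6 tissue libraries (3.58% to 6.71% of reads outside genes and 1.91% to 2.58% ambiguous) stayed out of totals and tests. CPM was counts over the library total.

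The 8 libraries of the zmlrl5 set were fitted as 4 group means with edgeR 4.0.16 in R 4.3.3. Settings were filterByExpr at a minimum count of 10 and total of 15, TMM and a two-sided quasi-likelihood test. Benjamini-Hochberg adjustment ran over all genes tested, with calls at adjusted p under 0.05. The procedure was first tested on simulated counts, for W22 zmlrl5 against wild type root hair alone. It recovered 149 of 197 genes changed 2-fold, with 13 false calls. At 4-fold it recovered 177 of 195, with 15 false calls. Alternatives were other scalings, no filter, DESeq2 1.42.0, a fit of all 14 libraries, a replicate block, leaving out each library, and other thresholds of the rule. No label tells whether libraries of the same group were grown as separate plants, so p-values measure only the spread between these samples. Floors of 3 counts and exact intervals cover counting error only.

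The members and gene lists were chosen with earlier results of these data known. Members named in the text are those with a gene name, the 10 highest in root and aerial seedling, the 5 with the highest W22 hair level relative to root, the 8 with the smallest adjusted p in each zmlrl5 comparison, those with extreme ratios of root to aerial seedling and those near the thresholds. GRMZM2G032807, GRMZM2G055704, GRMZM2G057852, GRMZM2G034985, GRMZM5G805485, GRMZM2G141026 and the neighbours were named after their values were seen. RefSeq (assembly Zm-B73-REFERENCE-NAM-5.0) gave a match for 18997 IDs and a gene name for 2830.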

Additional observations from a re-analysis of the deposited data

Results flagged for a closer look

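For 17 members named in the text the zmlrl5 effect in W22 root hair differed from that in B73 root by a test of the difference (edgeR interaction contrast, adjusted p under 0.05). The log2 difference, hair effect minus root effect, was negative for bZIP113 (-3.464), GRMZM2G080466 (-2.765), GRMZM2G056236 (-2.486), the H4 gene GRMZM2G084195 (-2.203), AC231745.1_FG003 (-2.011), lox6 (-1.512), GRMZM2G013986 (-1.44), PIP2-6 (-0.917), BX4 (-0.7803) and sus1 (-0.3492). It was positive for GRMZM2G032807 (2.901), GRMZM2G130079 (1.256), expB4 (1.184), PIP1-3 (1.055), GRMZM2G055704 (0.8172), GRMZM2G538535 (0.6805) and GRMZM2G175406 (0.6587). sus1 was at -0.04 in hair and 0.30 in root and BX4 at -0.46 and 0.32, and both were called in root and not in hair. GRMZM2G032807 and GRMZM2G055704 were named after their values were seen, and the former had at most 1.09 CPM in hair. Groups hold 2 libraries each, so no group was examined for a library far from the others.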

How the results depend on the processing

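The 89 members lower in W22 wild type hair than in B73 wild type root stayed 89 under each alternative run. In zmlrl5 hair the 30 calls became 26 to 31 when a library was left out. The 21 calls in zmlrl5 root became 4 in a fit of all 14 libraries and 4 to 29 without single libraries, and the 26 differences between effects became 17 and 21 to 27. Over all genes, the fit of 14 libraries gave 3233 calls in place of 5703 in hair, 955 in place of 2115 in root and 1828 in place of 3701 for the difference. Leaving out libraries gave 19059 to 21077, 4752 to 5530, 1133 to 2704 and 2688 to 4005 calls for hair against root, zmlrl5 hair, zmlrl5 root and the difference. The cause was not tested. The number of members, 92, became 36 at a margin of 8 on the log2 scale, 159 at 50 CPM, 36 at 200 CPM, 32 with 1 CPM added, 35 with TMM factors and 86 to 97 without single libraries. With the replicate number as a block 89, 30, 15 and 25 members and 20033, 5152, 1792 and 3286 genes were called in the same order of comparisons. Same-numbered libraries deviated with correlations of -0.0522 to 0.0379, which gives no sign of pairing by number. With 2 libraries a group this check cannot exclude a pairing. Library totals with no scaling factors, chosen after seeing the data, gave 89, 31, 24 and 27 members. No result reversed. With 2 libraries a group and hair levels of a few counts, changes in hair below about 1 CPM rest on few reads.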
